A study of Mus musculus with 6 samples.

Results

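Expression of 10 genes of the Notch pathway was read from RNA sequencing of 6 mouse kidney libraries. The genes are the 4 receptors Notch1, Notch2, Notch3 and Notch4, the 3 ligands Jag1, Jag2 and Dll4, and the 3 target genes Hes1, Hey1 and Heyl. They were chosen by name from 51804 gene symbols in the deposited table, each matched 1 Ensembl gene ID, and all 10 had enough counts to be tested. The 3 libraries labelled cko came from kidneys of genotype Ccnb1f/f;Cdh16-Cre, in which Cre recombinase meets floxed alleles of Ccnb1, the gene of the mitotic cyclin B1. The 3 control libraries came from kidneys of genotype Ccnb1f/f, which carry the floxed alleles without Cre. The Cdh16 promoter is active in renal tubular epithelium, so vessels, stroma and immune cells of the same kidneys should keep their Ccnb1 alleles. Recombination by cell type was not tested here. The study's stated question was the role of tubular cyclin B1 in arrest of the cell cycle, ageing and fibrosis of the kidney. The sources used here give no age or strain, and do not state that each library is its own animal. Every p-value therefore refers to the spread among these 6 libraries, part of which may be technical. The extraction text in the labels speaks of both kidney and cultured cells, while the tissue label is kidney.

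Notch receptors are surface proteins that are switched on by Delta-like and Jagged ligands on a neighbouring cell. Binding leads to cleavage by Adam10 and then by gamma-secretase, and the freed intracellular part enters the nucleus, joins the DNA-binding protein Rbpj and Mastermind coactivators, and turns on genes of Hes and Hey repressors. In the developing kidney Notch2 is needed for proximal nephron segments, in the collecting duct Notch signals separate principal from intercalated cells, and in vessels Dll4 and Notch4 mark endothelium while Notch3 marks smooth muscle cells and pericytes.

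The depth was 16061435 to 21261226 estimated counts per library, and levels are given as CPM, counts divided by a normalised library total. A count of 0 allows up to 3 counts, or 0.138 to 0.189 CPM, which covers counting error only because reads without molecular identifiers are not independent. Kidney markers were abundant in every group, with Umod of the thick ascending limb at 2046 FPKM (counts per kilobase of transcript, scaled to a common depth) in cko and 2002 FPKM in control kidneys, and Slc34a1 of the proximal tubule at 1841 FPKM in cko and 1874 FPKM in control kidneys. Ccnb1 itself held 18, 15 and 11 counts in the cko libraries and 11, 17 and 7 counts in the controls, and did not check the labels at this depth, so directions are given by label. Control 2 lay apart on the first principal component of log2 CPM (31.2% of the variance), at -39.8 against -2.0 to 13.6 for the other libraries. Control 3 lay apart in a list of 15 immediate early and stress genes, with a summed level of 3885 CPM against 442 to 745 CPM in the others, and 13 of its 15 genes had a log2 fold change below 0. Over all 15017 genes tested with the quasi-likelihood test of edgeR, Kap and Mcm6 were past the threshold of an adjusted p under 0.05. Kap, an androgen-regulated gene of the proximal tubule, had 0 counts in every cko library and 8727 to 16610 CPM in controls. Mcm6, a subunit of the replicative helicase, had 17.2 to 32.6 CPM in cko and 1.88 to 3.40 CPM in control kidneys.

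None of the 10 Notch genes passed that threshold, against 0.0133% of all genes tested. At an unadjusted p under 0.05 there were 2 of the 10, Notch1 and Notch3, both lower in cko kidneys. Of all genes, 3.23% had such a p in either direction and 1.88% in the lower direction. DESeq2 (0.0812% of all genes called) and limma on log2(FPKM + 1) (0.00783%) also called 0 members, with 2 and 0 members at an unadjusted p under 0.05. The share of all genes under that unadjusted p was not taken for DESeq2 and limma, so these counts have no background. The CPM of cko and control libraries did not overlap for 3 of the 10. These were the receptors Notch1, Notch2 and Notch3, each lower in cko kidneys. Of all tested genes, 8.18% did not overlap in either direction, and 4.08% were lower without overlap. The 3 receptors also varied together over the libraries, so they are not 3 independent counts. The log2 fold change of cko over control was below 0 for 9 of the 10 members, against 51% of all genes, with a median of -0.16 against -0.01 over all genes. The ligands, the targets and Notch4 had overlapping groups.

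The promoters of the 3 receptors whose groups did not overlap are shown because Hes and Hey proteins, the products of the targets, bind DNA at class C sites (CACGNG) and N-boxes (CACNAG), which is how the pathway can feed back on genes near such sites. Each sequence runs 5′ to 3′ in the direction of the gene, from 250 bases before its start to 50 bases after it that lie in the transcribed part, and comes from RefSeq on GRCm38.p6. Matches to either motif on either strand are in capitals. Notch1 lies on the minus strand at chr2:26503773-26504072, Notch2 on the plus strand at chr3:98013288-98013587 and Notch3 on the minus strand at chr17:32166841-32167140. The RefSeq start of Notch1 is the start of its main transcript and lies 12841 bases downstream of the outermost start in the deposited table, while those of Notch2 and Notch3 lie within 11 bases of it.
Notch1: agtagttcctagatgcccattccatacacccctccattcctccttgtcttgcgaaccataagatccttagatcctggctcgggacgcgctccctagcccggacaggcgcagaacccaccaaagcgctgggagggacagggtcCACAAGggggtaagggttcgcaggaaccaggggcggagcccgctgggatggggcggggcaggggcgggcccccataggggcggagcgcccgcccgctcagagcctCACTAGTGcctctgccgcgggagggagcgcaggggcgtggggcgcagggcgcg
Notch2: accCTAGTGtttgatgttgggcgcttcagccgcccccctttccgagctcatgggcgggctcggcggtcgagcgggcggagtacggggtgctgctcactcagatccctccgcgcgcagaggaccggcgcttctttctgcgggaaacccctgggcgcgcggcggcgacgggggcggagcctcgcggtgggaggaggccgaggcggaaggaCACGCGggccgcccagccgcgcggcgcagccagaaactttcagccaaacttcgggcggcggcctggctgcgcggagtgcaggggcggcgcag
Notch3: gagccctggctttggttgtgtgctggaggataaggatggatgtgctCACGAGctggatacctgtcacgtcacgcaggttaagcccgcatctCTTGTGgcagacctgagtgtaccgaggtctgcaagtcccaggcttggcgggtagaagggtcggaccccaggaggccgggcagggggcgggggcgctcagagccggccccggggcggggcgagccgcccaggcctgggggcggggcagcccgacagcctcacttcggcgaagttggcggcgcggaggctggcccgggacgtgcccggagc

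Positions below count from the start base as 0. The Notch1 window held N-box letters at -108 and a pair of overlapping matches on opposite strands at -3 and -1, and no class C match. The Notch2 window held a class C match, CACGCG, at -42 and an N-box on the minus strand at -247. The Notch3 window held CACGAG at -204, which is a class C site and an N-box at once, and an N-box on the minus strand at -159. Of the 10 members, 7 had a promoter in the RefSeq table (Notch1, Notch2, Notch3, Notch4, Jag1, Jag2 and Dll4). Class C letters were in 5 of these 7 (Notch2, Notch3, Jag1, Jag2 and Dll4), against 27.5% of 32851 promoter windows of the same length. N-box letters were in 4 of 7 (Notch1, Notch2, Notch3 and Dll4), against 42.5%. The groups of Jag1, Jag2 and Dll4 overlapped, so these letters were not particular to the receptors that were lower. The 7 windows held 55.7 to 86% G and C. The shares over all windows were not matched for this, and its part was not tested. The core of the Rbpj site, TGGGAA, was in 0 of the 7 windows, against 25.6% of all. The general E-box CANNTG was in 2 of 7, against 72.3%. A match is a stretch of letters and no measure of binding, and a missing match says only that the letters are not in this window.

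Notch1, on chromosome 2 (26457903 to 26516663, minus strand, GRCm38), stood lower in cko kidneys in all libraries. It had 27.2, 26.2 and 26.2 CPM in the cko libraries and 32.5, 40.2 and 33.8 CPM in the controls. The cko libraries lay close together below every control, and control 2 was the highest. The means were 26.5 ± 0.569 CPM in cko and 35.5 ± 4.16 CPM in control kidneys (SD, n = 3 each). Cko over control, the log2 fold change came to -0.42 (95% confidence interval -0.69 to -0.15, SE 0.12), the 49th lowest p of 15017 genes (edgeR quasi-likelihood test, unadjusted p = 0.0069, adjusted p = 0.999). The exact two-sided permutation test over libraries gave p = 0.1, the smallest that 3 against 3 allows. Without control 2 the log2 fold change was -0.32, and over all libraries left out in turn it ran from -0.48 to -0.32. An antisense neighbour, 0610009E02Rik, overlaps the 3′ end of Notch1 and held 16.9 to 57.2 counts per library, against 416 to 794 for Notch1. Whether the libraries keep strand is not stated in the sources used here.

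Notch3, the receptor of mural cells (chromosome 17, 32120820 to 32166880, minus strand), had the next lowest p of the group. It had 14.1, 11.9 and 12.9 CPM in the cko libraries and 16.3, 18.5 and 15.5 CPM in the controls. Every cko library was below every control. This gave a log2 fold change of -0.37 (95% confidence interval -0.69 to -0.05, SE 0.14; edgeR unadjusted p = 0.0272, adjusted p = 0.999), and it ran from -0.44 to -0.30 with 1 library left out. The summed level of 13 smooth muscle and pericyte markers was 301.5 to 327.5 CPM in cko kidneys and 342.7 to 371.9 CPM in controls. These sums did not overlap either. Of the 12 marker lists read, only this and the macrophage list had sums without overlap. Of the 13 smooth muscle and pericyte markers 10 were lower (all genes, 51%), with a median log2 fold change of -0.17. Of the 3 most abundant markers, Mylk, the myosin light chain kinase, was at -0.17 (SE 0.11), Ren1, which encodes renin, was the highest of the list at 0.39 (SE 0.34), and Tagln, an actin-binding protein of smooth muscle, was the lowest at -0.75 (SE 0.28). The groups of Mylk, Ren1 and Tagln each overlapped. Of 8 fibroblast markers 7 were lower, with a summed level of 95.1 to 141 CPM in cko and 137 to 164 CPM in control kidneys, and no marker of either list was at 0. The part of these cells in the Notch3 difference was not tested. In whole kidney, fewer cells of a type and less RNA per cell cannot be told apart.

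Notch2 (chromosome 3, 98013527 to 98150361, plus strand), the receptor of nephron patterning, was the most abundant of the 4 receptors. It had 58.2, 60.8 and 64.3 CPM in the cko libraries and 65.9, 77.9 and 66.6 CPM in the controls. The groups did not overlap, although the highest cko library and the lowest control were 64.3 and 65.9 CPM. On the log2 scale the fold change stood at -0.20 (95% confidence interval -0.44 to 0.05, SE 0.11; edgeR adjusted p = 0.999), and -0.12 without control 2. Other lists were read beside these 3 receptors. All 9 macrophage markers had a log2 fold change above 0, and their summed level was 143.5 to 195.5 CPM in cko and 127.6 to 142.7 CPM in control kidneys, without overlap. Of 8 collecting duct markers 7 were below 0. Their summed level was 423.7 to 631.4 CPM in cko and 515.9 to 773.7 CPM in control kidneys, with overlap. It was highest in control 2, as for Notch1, Notch2 and Notch3. The podocyte, arterial and tubular injury lists were also highest in control 2, the library that lay apart on the first principal component. No macrophage or collecting duct marker was at 0, and the part of these lists in the receptor values was not tested.

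Notch4, the receptor of endothelium (chromosome 17, 34564268 to 34588503, plus strand), gave overlapping groups. It had 28.0, 20.6 and 21.03 CPM in the cko libraries and 25.6, 25.9 and 19.9 CPM in the controls. The highest value was in cko 1 and the lowest in control 3. Cko over control, the log2 fold change came to -0.04 (95% confidence interval -0.42 to 0.35, SE 0.17; edgeR adjusted p = 0.999), and its sign turned in 4 of the 6 fits with 1 library left out. Summed levels of 14 endothelial markers were 690 to 909 CPM in cko and 778 to 880 CPM in control kidneys, with 12 of 14 lower. Those of 6 arterial markers were 48.9 to 56.1 CPM in cko and 48.4 to 58.6 CPM in control kidneys, with 2 of 6 lower, and no marker of either list was at 0. Their part in the Notch4 values was not tested.

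**Figure D1:**
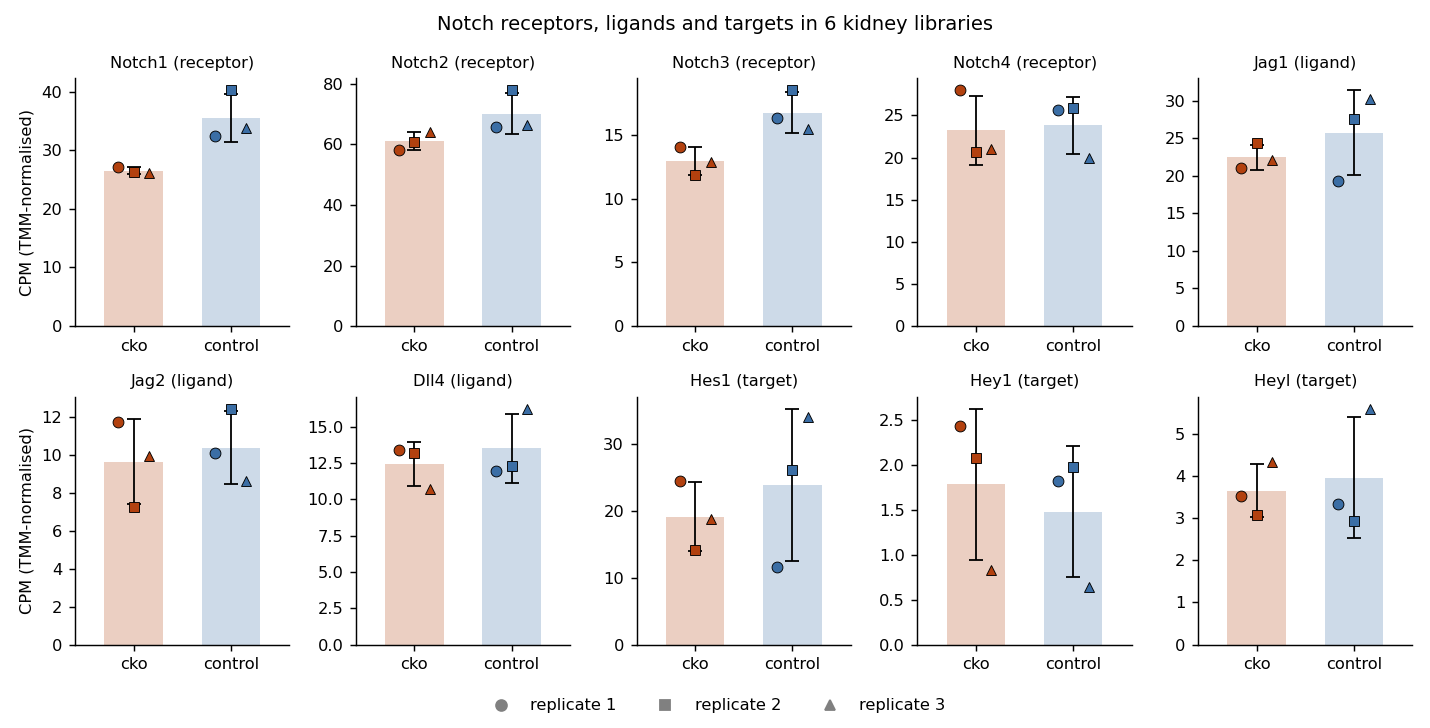
Each panel plots TMM-normalised CPM of a Notch gene in 3 cko libraries (left) and 3 control libraries (right); bars are means, error bars are SD and marker shapes give the replicate number. The cko points of Notch1, Notch2 and Notch3 all lie below the control points, while in the other 7 panels the groups overlap.

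Among the ligands, Jag1 on chromosome 2 (137081456 to 137116644, minus strand) had 21.1, 24.3 and 22.0 CPM in the cko libraries and 19.4, 27.6 and 30.3 CPM in the controls. The 3 cko libraries lay inside the range of the controls. This gave a log2 fold change of -0.19 (95% confidence interval -0.60 to 0.21, SE 0.17), -0.06 without control 3 and -0.36 without control 1 (edgeR unadjusted p = 0.0244, adjusted p = 0.889). Jag2 on chromosome 12 (112907819 to 112929776, minus strand) had 11.7, 7.25 and 9.92 CPM in the cko libraries and 10.1, 12.4 and 8.59 CPM in the controls, with cko 2 the lowest. Its log2 fold change stood at -0.11 (95% confidence interval -0.62 to 0.40, SE 0.22), with a change of sign without cko 2 or without control 2. Dll4, the Delta-like ligand of endothelial sprouting (chromosome 2, 119325784 to 119335962, plus strand), had 13.4, 13.2 and 10.7 CPM in the cko libraries and 11.96, 12.3 and 16.2 CPM in the controls. Control 3 was the highest and the other 5 libraries overlapped. On the log2 scale the fold change stood at -0.12 (95% confidence interval -0.52 to 0.28, SE 0.17), and 0.03 without control 3. The adjusted p of each ligand was 0.999 (edgeR quasi-likelihood test).

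Hes1, a repressor and a direct target of Notch (chromosome 16, 30064384 to 30067796, plus strand), had the widest absolute range of CPM among the 10 genes. Relative to the mean Hey1 varied more, with an SD over the 6 libraries of 44.4% of its mean against 38.7% for Hes1. Hes1 had 24.5, 14.1 and 18.8 CPM in the cko libraries and 11.7, 26.1 and 34.1 CPM in the controls. The controls held both the lowest library, control 1, and the highest, control 3, so the whole cko range fell inside the control range. Cko over control, the log2 fold change came to -0.32 (95% confidence interval -1.16 to 0.52, SE 0.36, edgeR adjusted p = 0.999). It was 0.02 without control 3 and -0.65 without control 1 (edgeR unadjusted p = 0.0308, adjusted p = 0.889). Control 3 was the library with the high immediate early and stress genes, whose part in the Hes1 level was not tested.

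Hey1 and Heyl, related repressors known from vessels, were rare. Hey1 (chromosome 3, 8663359 to 8667256, minus strand) held 42, 33 and 18 counts in the cko libraries and 30, 39 and 11 counts in the controls. These counts equal 2.43, 2.08 and 0.830 CPM in cko and 1.82, 1.98 and 0.643 CPM in control kidneys, with a low library in each group. This gave a log2 fold change of 0.25 (95% confidence interval -0.97 to 1.47, SE 0.53), -0.05 without cko 1 and -0.11 without control 3. Heyl (chromosome 4, 123233556 to 123249875, plus strand) had 3.54, 3.09 and 4.34 CPM in the cko libraries and 3.34, 2.94 and 5.61 CPM in the controls. The highest value of each group was in the library in which Hey1 was lowest, cko 3 and control 3. On the log2 scale the fold change stood at -0.11 (95% confidence interval -0.80 to 0.58, SE 0.30), and 0.23 without control 3. The interval of Hey1 spans 0.511-fold to 2.76-fold, so changes inside that range, in either direction, could not be told from none in these libraries.

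**Figure D2:**
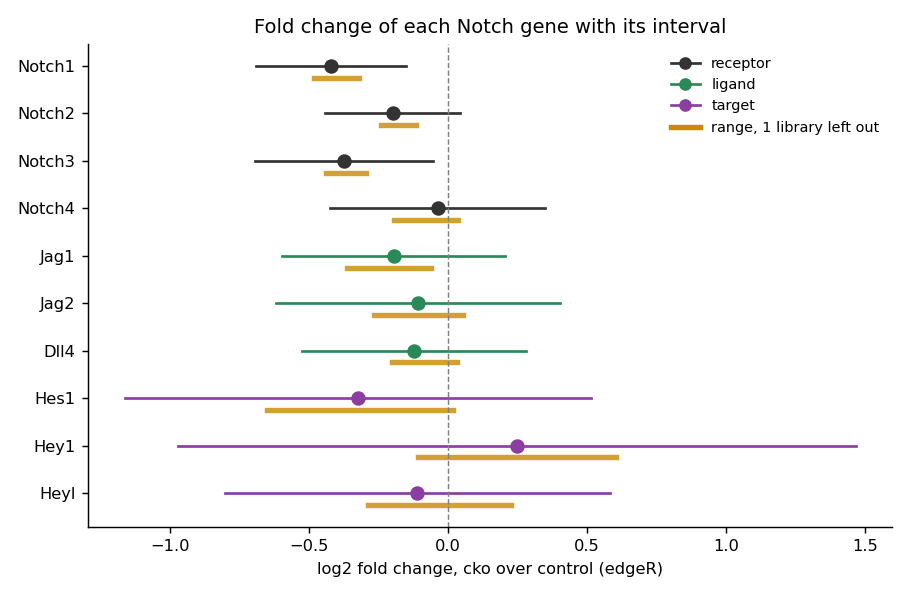
The plot gives the edgeR log2 fold change of cko over control (x axis) for each Notch gene (y axis); points are estimates, thin lines are 95% confidence intervals and ochre bars are the range over the 6 fits that leave out 1 library. The intervals of Notch1 (-0.69 to -0.15) and Notch3 (-0.69 to -0.05) lie below 0 before adjustment over all genes, and the other 8 cross 0.

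Compared per length by the deposited FPKM, summed over the transcripts of a gene, the 10 genes had mean levels of 0.730 to 15.2 FPKM over the 6 libraries. Hes1 led with 13.4 ± 3.50 FPKM in cko and 17.0 ± 8.10 FPKM in control kidneys (SD, n = 3 each), above Notch2 in 6 of 6 libraries. Notch2 followed at 5.91 ± 0.450 FPKM in cko and 6.71 ± 1.08 FPKM in control kidneys. Jag1 came next at 4.77 ± 0.193 FPKM in cko and 5.43 ± 1.48 FPKM in control kidneys. Notch4 stood at 4.26 ± 1.32 FPKM in cko and 4.52 ± 0.976 FPKM in control kidneys. The next 3 lay close together. Notch1 had 3.22 ± 0.255 FPKM in cko and 3.84 ± 0.690 FPKM in control kidneys, Dll4 had 3.31 ± 0.352 FPKM in cko and 3.59 ± 0.571 FPKM in control kidneys, and Jag2 had 3.32 ± 0.454 FPKM in cko and 2.93 ± 0.387 FPKM in control kidneys. Notch3 was at 1.62 ± 0.146 FPKM in cko and 2.09 ± 0.318 FPKM in control kidneys. Heyl was at 0.837 ± 0.116 FPKM in cko and 0.890 ± 0.329 FPKM in control kidneys, and Hey1 at 0.777 ± 0.307 FPKM in cko and 0.683 ± 0.257 FPKM in control kidneys. Ranges over the 6 libraries were separate only between Jag2 and Notch3 and between Notch3 and Heyl. All other neighbours in this order overlapped, and Notch1 was above Dll4 in 3 of 6 libraries. Of 24101 genes with a value above 0, 78.9% had a lower mean FPKM than Hes1 and 44.5% a lower one than Hey1.

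Most of each gene's counts went to 1 full-length coding transcript, and short annotated transcripts weighed more on the FPKM scale. Of the 51 transcripts of these genes, 34 had counts in at least 1 library. Notch3 and Dll4 had all their counts on 1 transcript. The main transcript held 99.6% of the counts of Notch1, 99.8% of Notch2, 95.03% of Notch4, 93.4% of Jag1, 97.9% of Hes1, 95.1% of Hey1 and 99.5% of Heyl. Jag2 was the most divided, with 89.8% of its counts but 56.4% of its FPKM on the main transcript. Its other transcripts with counts are 406 to 1092 bases long, against 5106 bases for the main one. On the main transcript alone Jag2 averaged 1.76 FPKM over the 6 libraries, below Notch3 at 1.85 FPKM.

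The same weighting bore on Notch1. With all transcripts summed, cko 2 had 3.41 FPKM and control 1 had 3.30 FPKM, so the groups overlapped on this scale. On the main transcript alone, Notch1 had 2.83, 2.70 and 2.81 FPKM in the cko libraries and 3.30, 4.49 and 3.44 FPKM in the controls, without overlap. The transcript that made up most of the difference, ENSMUST00000123873, is a noncoding one of 406 bases, and held 3.46, 3.73 and 0.064 counts in the cko libraries and 0, 0 and 1.22 counts in the controls.

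**Figure D3:**
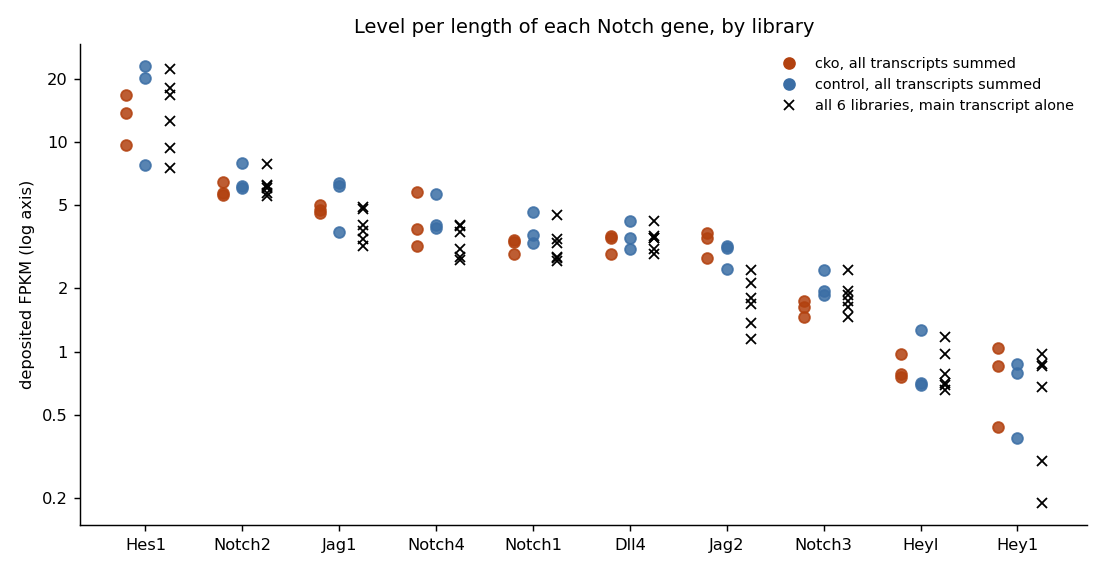
Deposited FPKM (y axis, log scale) is plotted per library for each Notch gene in order of its mean (x axis), with cko and control libraries as filled points for all transcripts summed and crosses for the main transcript in all 6 libraries. Hes1 is highest at 7.79 to 23.0 FPKM, Hey1 and Heyl are lowest, and the crosses of Jag2 lie below its summed points.

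Within the receptor family, Notch2 took the largest share and Notch3 the smallest in both groups. Of the summed main-transcript FPKM of the 4 receptors, Notch2 took 43.1 ± 3.36% in cko and 41.8 ± 1.55% in control kidneys (SD, n = 3 each), and Notch4 took 24.3 ± 3.35% in cko and 21.8 ± 2.79% in control kidneys. Notch1 took 20.1, 21.2 and 20.5% in the cko libraries and 22.0, 23.9 and 24.3% in the controls. Notch3 took 12.4, 11.5 and 11.9% in the cko libraries and 13.0, 13.0 and 13.1% in the controls. The shares of Notch1 and Notch3 were thus below every control in each cko library, a description of the same libraries with no test of its own. Among the ligands Jag1 took 43.1 ± 4.67% in cko and 43.6 ± 3.62% in control kidneys, Dll4 took 38.0 ± 2.77% in cko and 36.9 ± 4.23% in control kidneys, and Jag2 took 18.9 ± 5.09% in cko and 19.4 ± 5.40% in control kidneys. The groups overlapped for all 3 ligands.

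Across libraries the members varied in different directions. Relative to each gene's own mean of log2 CPM, 8 of 10 members were below it in cko 3 and 7 of 10 in cko 2, while 8 of 10 were above it in control 2 and 7 of 10 in control 3. Cko 1 had 5 above and 5 below. Over the 6 libraries, Pearson's r of log2 CPM was 0.945 between Notch1 and Notch3, 0.897 between Notch1 and Notch2 and 0.802 between Notch2 and Notch3. Between Hey1 and Heyl it was -0.907, and between Hes1 and Hey1 -0.41. These are descriptions over 6 libraries that share depth and group differences.

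**Figure D4:**
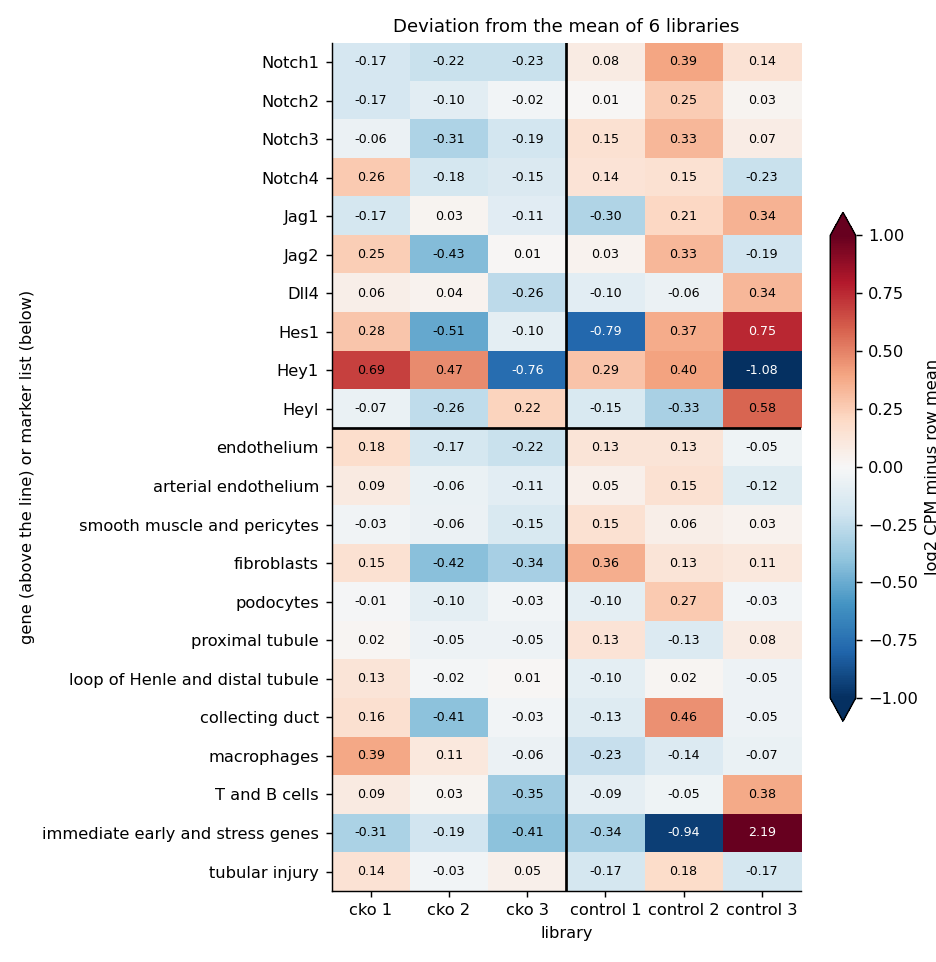
Colour and number give log2 CPM minus the mean of the 6 libraries, for each Notch gene (rows above the line) and for summed CPM of marker lists (rows below), with cko libraries left of the vertical line and controls right of it. Notch1, Notch2 and Notch3 are below 0 in all cko libraries and above 0 in all controls, and the immediate early and stress list reaches 2.19 in control 3.

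By the same measure, the genes most like each member were sought among the 10618 genes with a mean of at least 5 CPM (10619 for Hey1 and Heyl, which are below that level themselves). They were Mtrr (r 0.989) and Exd2 (0.987) for Notch1, Atg16l2 (0.984) and Atp8b1 (0.972) for Notch2, Epb41l1 (0.988) and Setbp1 (0.980) for Notch3, and Rpl21 (0.994) and Itm2c (0.993) for Notch4. They were Rp9 (0.999) and Sf3b1 (0.998) for Jag1, Slc1a5 (0.992) and Clca3a1 (0.991) for Jag2, and Bdnf and Eif1a (0.982 each) for Dll4. For the targets they were Armcx2 (0.984) and Rbfox2 (0.972) for Hes1, Pttg1 (0.988) and Emc1 (0.982) for Hey1, and Pnrc1 (0.979) and Tbxas1 (0.978) for Heyl. Each r is the highest over all genes searched, on 6 libraries, and no other member was among these genes. Rpl21 has many near-identical copies, so its own counts are uncertain.

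The rest of the pathway was read from 6 lists of 62 genes, of which 54 could be tested. None passed the edgeR threshold (0.0133% of all genes did), and 2 had an unadjusted p under 0.05 (all genes, 3.23%). The log2 fold change was above 0 for 20 and below 0 for 34 (all genes, 51% below 0). That share is also the background for the counts by list below. CPM of the groups did not overlap for 5 genes (all genes, 8.18%), among them Dll1, Efnb2 and Spen, which were lower, and Ncstn, which was higher in cko kidneys. DESeq2 and limma on log2(FPKM + 1) also called 0 of the 58 and 48 of these genes that they tested, with 2 and 1 at an unadjusted p under 0.05. For these counts too, the share of all genes was not taken.

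Of other ligands only Dll1 could be tested. Dll1, a Delta-like ligand, had 11.1, 10.98 and 10.7 CPM in the cko libraries and 11.3, 14.1 and 16.9 CPM in the controls. The lowest control was barely above the cko libraries. Its log2 fold change was -0.37 (SE 0.17; edgeR unadjusted p = 0.0628). The ligand-like gene Dlk1 was at 0 counts in all libraries, and Dll3, Dlk2 and Dner were too rare to test.

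Of the list of targets and feedback genes outside the members, 10 could be tested, with 2 above 0 and 8 below. None of these passed the threshold, and the median log2 fold change was -0.26. The list was drawn up by name, and whether Notch turns on each of its genes in kidney was not tested. Ccnd1, which encodes cyclin D1, was at -0.32 (SE 0.31), Hes6 at -0.23 (SE 0.26) and Myc at -0.30 (SE 0.57). Efnb2, the arterial ephrin ligand, had the lowest p of the list, with 18.8, 17.7 and 15.7 CPM in the cko libraries and 20.9, 22.6 and 20.2 CPM in the controls. Its log2 fold change was -0.29 (SE 0.13; edgeR unadjusted p = 0.0519), and its groups did not overlap. The lowest and highest log2 fold changes of the list were those of the repressors Hey2 at -0.86 (SE 0.46) and Hes2 at 0.30 (SE 0.46). Hes3, Hes5 and Ptcra were at 0 counts in all 6 libraries.

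In the nuclear complex 5 of 15 genes stood above 0 and 10 below, with a median of -0.14. Rbpj, which carries the complex to DNA, was at 0.06 (SE 0.17), and its coactivators Maml1, Maml2 and Maml3 were at -0.13 (SE 0.14), -0.14 (SE 0.19) and -0.33 (SE 0.26). Spen, a corepressor that acts with Rbpj, had 61.4, 73.5 and 80.4 CPM in the cko libraries and 86.7, 83.0 and 114 CPM in the controls, a log2 fold change of -0.40 (SE 0.15; edgeR unadjusted p = 0.0333). The abundant members were Ctbp1 at 0.02 (SE 0.11), Tle3 at 0.12 (SE 0.19) and Snw1 at -0.04 (SE 0.11).

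The cleavage machinery stood near 0 or above it, with 7 of 10 genes above 0 and a median of 0.07. Ncstn, the nicastrin subunit of gamma-secretase, had 68.8, 84.3 and 75.7 CPM in the cko libraries and 62.9, 62.7 and 64.1 CPM in the controls. All cko libraries were above all controls, with a log2 fold change of 0.27 (SE 0.10; edgeR unadjusted p = 0.0318). Psen2, a catalytic subunit of gamma-secretase, was at -0.01 (SE 0.16). Furin, the protease that processes new receptors, was at 0.06 (SE 0.13), Psenen at 0.13 (SE 0.13), Aph1a at -0.0043 (SE 0.12) and Adam10 at 0.07 (SE 0.11).

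The lists of sugar transferases and ubiquitin ligases had medians close to 0, with single genes farther from it. Of 5 glycosyltransferases 2 stood above 0, with a median of -0.03. Lfng, a Fringe enzyme that modifies receptor sugars, was at -0.31 (SE 0.24), Rfng at 0.03 (SE 0.09), Poglut1 at -0.03 (SE 0.13) and Pofut1 at 0.03 (SE 0.10). Of 13 ubiquitin ligases and endocytic regulators 4 stood above 0, with a median of -0.05. Numb, an endocytic inhibitor of Notch, was at -0.10 (SE 0.12), Dtx3 at 0.07 (SE 0.10), Itch at 0.02 (SE 0.14) and Mib2 at -0.01 (SE 0.10). The farthest from 0 in that list was Dtx4, an E3 ligase of the Deltex family, at 0.33 (SE 0.41).

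**Figure D5:**
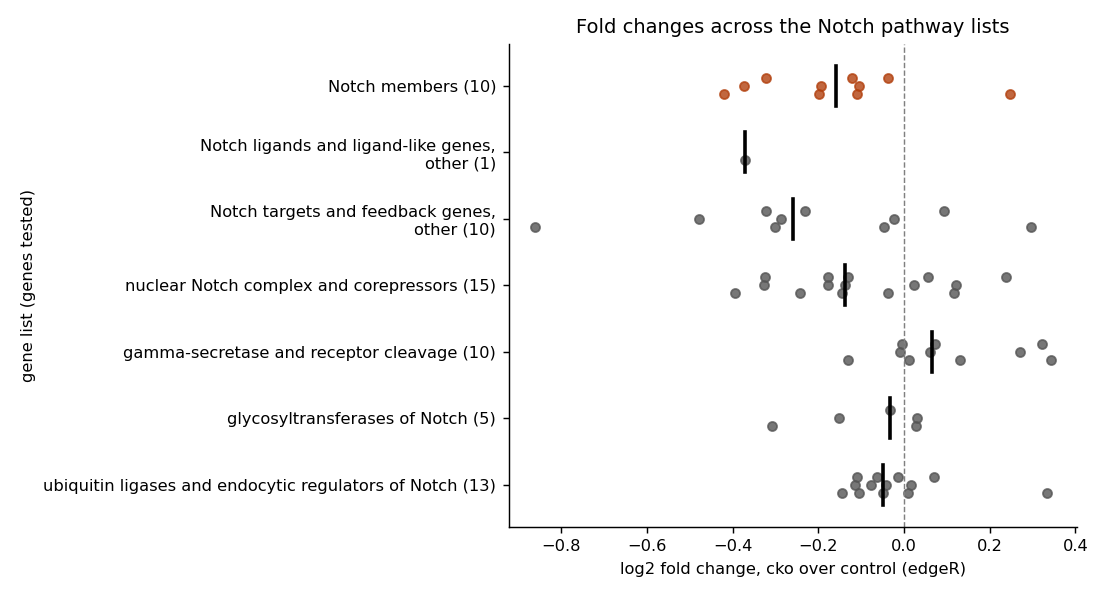
Each point is a gene's edgeR log2 fold change of cko over control (x axis), by list (y axis, with the number of genes tested), and vertical bars are list medians. The 10 Notch genes have a median of -0.16, the list of other targets and feedback genes -0.26 and the cleavage machinery 0.07.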

How the data were processed

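RNA sequencing of kidney was used from 3 cko and 3 control libraries, grouped by sample title. The authors deposited estimated counts per transcript, not normalized, beside FPKM values for the same transcripts (per the file headers). Per the submitters' processing notes, the aligner HISAT2 2.0.1 and Cuffdiff 2.2.1 were among the tools, on build GRCm38; the counting program and library kit are not stated in the sources used here. For the main transcripts, the length implied by the deposited FPKM was 0.997 to 1.003 times the spliced length in GENCODE M21, so FPKM values are per spliced length.

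Estimated counts of 128603 transcripts were summed per gene symbol and rounded to whole numbers. The test was edgeR 4.0.16 in R 4.3.3 (quasi-likelihood, TMM, minimum count 10, group only, two-sided), with Benjamini-Hochberg adjustment over 15017 genes and a threshold of 0.05. SE is the absolute log2 fold change over the square root of F. CPM are TMM-normalised, and correlations use log2(CPM + 0.1). Alternatives were other size factors and filters, DESeq2 1.42.0, limma 3.58.1 on log2(FPKM + 1), a replicate block and each library left out. Fits were tested on simulated data. Members, lists and the rule for named genes (all members; the 3 most abundant and the lowest p of each pathway list; the 2 genes most like each member) were chosen with earlier results of these data known. Adam10, Dtx4, Hes2, Hey2, Maml1, Maml2, Maml3, Psen2 and Rbpj were named beyond that rule, after their values were seen. Some pathway genes counted in the lists are not reported here by name. RefSeq promoters (GRCm38.p6) were matched by symbol for 7 of 10 members. Of the marker lists, those of mural, fibroblast, endothelial, arterial, macrophage, collecting duct and immediate early genes are given beside the results they touch. For the podocyte and tubular injury lists only the library with the highest level is given.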

Additional observations from a re-analysis of the deposited data

How the results depend on the processing

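None of the 10 Notch genes passed the threshold in any of the 14 alternative fits that held it (lowest adjusted p 0.889, in the fit without control 1). Of 135 member estimates, 121 kept their sign and 14 changed it; Notch1, Notch2, Notch3 and Jag1 kept theirs in all fits run. Jag2 was at 0.13 in limma on log2(FPKM + 1), with and without a filter, and at 0.17 with a pseudocount of 0.1. With 1 library left out, log2 fold changes ran from -0.19 to 0.035 for Notch4, -0.36 to -0.062 for Jag1, -0.27 to 0.053 for Jag2, -0.20 to 0.033 for Dll4, -0.65 to 0.019 for Hes1, -0.11 to 0.60 for Hey1 and -0.29 to 0.23 for Heyl. Notch1 was at -0.19 and Notch3 at -0.23 in limma on log2(FPKM + 1), and at -0.24 and -0.34 with a pseudocount of 0.1. Over all genes 2 were called; the count was 5 without a filter, 15 with DESeq2, 1 in each limma fit, and 1 to 6 with 1 library left out. The cause of these shifts was not tested. In the order of levels, 2 members took another rank within cko kidneys, 0 within controls, and 5 when the main transcript alone was used, a choice made after seeing the data. Deviations of same-numbered libraries correlated at 0.104, -0.111 and 0.113, and those of differently numbered libraries at -0.182 to 0.0906. With correlations this low, the numbers were not taken to pair the libraries. With the replicate number as a block, 0 members and 2 genes were called, and Notch1 was at -0.41 and Notch3 at -0.37. Hey1 and Heyl held under 100 counts per library, and the SE of Hey1 was 0.53, against 0.31 with the replicate block. Hey1 was below the filters of 2 limma fits and of the fit that required 50 counts, and Heyl below those of 2 fits.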
